A study of Mus musculus with 23 samples.

Results

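The Peg3 domain is an imprinted cluster on mouse chromosome 7 that holds Zim1, Peg3 and Usp29. It was taken here as the windows of 3 methylation tables whose midpoint lies in chr7:6660000-6760000 (GRCm38), a stretch of 100 kb. These were 18 of 333984 windows in the E6.5 table and 22 of 402812 windows in each of the E7.5 tables. The windows that lie in the germline differentially methylated region (gDMR), taken as chr7:6726000-6733500, were 3 in each table.

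Peg3 encodes a zinc finger protein and Usp29 a ubiquitin-specific peptidase. Both are known to be expressed from the paternal allele and start back to back from a shared promoter region. Zim1 is a zinc finger gene known for expression from the maternal allele. The gDMR over the Peg3 start gains its methylation in the growing oocyte, and its methylated maternal copy is the one on which Peg3 and Usp29 are silent.

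DNA methylation was measured in 23 libraries by post-bisulphite adaptor tagging (PBAT), in which adaptors are added after bisulphite conversion so that few cells suffice. The tissues were epiblast, which forms the embryo proper, and extra-embryonic ectoderm (ExE), which contributes to the placenta. B6/CAST embryos had a C57BL6/Babr mother and a CAST (CAST/Ei) father, and CAST/B6 embryos the reverse, both with the wild-type genotype. In matDKO/CAST embryos the mother was a B6/129 female carrying floxed Dnmt3a and Dnmt3b, the de novo DNA methyltransferases, and the oocyte-active Zp3-cre, and the father was CAST, so that the deletion acted in the oocyte and the embryo kept the paternal copies of both genes. The 129 background was present only in the matDKO/CAST mothers and cannot be told apart from the deletion.

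The 15 libraries of E6.5 were 10% inputs of chromatin from pools of 4 epiblasts or 8 ExE. They comprised 3 B6/CAST, 3 CAST/B6 and 2 matDKO/CAST epiblast libraries, and 2 B6/CAST, 2 CAST/B6 and 3 matDKO/CAST ExE libraries. The 8 libraries of E7.5 came from single embryos, with 2 per cross and tissue, and their bisulphite conversion was carried out a second time. Only the E7.5 data were given per allele. The E6.5 and E7.5 tables have different windows and were processed separately, so values of both days stand side by side with no test between them. No read coverage comes with the values, so their depth is unknown, and p-values measure only the spread between these libraries.

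The Peg3 gene (ENSMUSG00000002265) spans chr7:6703892-6730431 on the minus strand and Usp29 (ENSMUSG00000051527) chr7:6730578-6967219 on the plus strand in GENCODE M21. Zim1 (ENSMUSG00000002266) lies at chr7:6671269-6696450 on the minus strand. The gDMR of 7501 bp holds 174 CpGs and contains the first exon and the whole first intron of Peg3, the gap between both starts and the first part of Usp29. The stretch between the outermost Peg3 and Usp29 starts of RefSeq and GENCODE, chr7:6730463-6730558 on the minus strand, is shown because both paternally expressed genes read away from it. Its CpGs are in capitals in the GRCm38 sequence.
Peg3 to Usp29 gap: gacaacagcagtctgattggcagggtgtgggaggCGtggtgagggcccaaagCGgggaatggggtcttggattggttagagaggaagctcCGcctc

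The first intron of Peg3, chr7:6726575-6730257, holds 2 groups of motifs. ZFP57, a zinc finger protein known for binding methylated TGCCGC and for keeping imprints after fertilization, had 8 matches in the gDMR on either strand, and all 8 lie in this intron. YY1, a zinc finger factor known for a cluster of sites in this intron, had 12 matches to GCCATNTT, all in the intron and all on the minus strand, which is the strand of Peg3. No ZFP57 match overlapped a YY1 match. Among 328313 tiles of the same length over the autosomes, 32.3% held a TGCCGC and 79.4% a GCCATNTT on either strand, while 0.0338% and 0.00761% held as many as the gDMR. A match is a run of letters and not a measured binding site. A stretch with 3 ZFP57 matches, chr7:6729894-6730193 on the minus strand, and a stretch with 3 YY1 matches, chr7:6727811-6728110 on the minus strand, are shown because they lie in or at the edge of windows where the alleles differed, with the matches in capitals (a capital GCGGCA is TGCCGC on the other strand).
Peg3 intron ZFP57 stretch: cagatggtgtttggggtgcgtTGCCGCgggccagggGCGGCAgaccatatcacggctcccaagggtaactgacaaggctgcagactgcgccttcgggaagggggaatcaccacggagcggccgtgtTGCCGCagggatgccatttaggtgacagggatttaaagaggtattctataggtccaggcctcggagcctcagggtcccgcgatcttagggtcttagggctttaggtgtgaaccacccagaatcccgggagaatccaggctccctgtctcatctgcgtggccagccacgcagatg
Peg3 intron YY1 stretch: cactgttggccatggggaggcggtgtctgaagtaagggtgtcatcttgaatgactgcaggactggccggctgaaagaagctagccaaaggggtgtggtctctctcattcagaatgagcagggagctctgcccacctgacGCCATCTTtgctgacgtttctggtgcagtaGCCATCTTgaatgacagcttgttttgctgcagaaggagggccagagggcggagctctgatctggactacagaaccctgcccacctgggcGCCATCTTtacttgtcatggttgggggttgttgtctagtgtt

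In the E7.5 tables the gDMR fell into 3 windows. The YY1 window, chr7:6727431-6729283, holds 8 of the 12 YY1 matches and 24.3 CpGs per kb. The ZFP57 window, chr7:6729284-6730167, holds 6 of the 8 ZFP57 matches and 50.9 CpGs per kb. The start window, chr7:6730168-6731248, holds both start sites and 43.5 CpGs per kb. The windows outside the gDMR had 5.0 to 32.6 CpGs per kb. Of these, the windows on either side reach into the gDMR, by 1431 bp on the Peg3 side and by 2252 bp on the Usp29 side. The E6.5 windows were nearly the same for the last 2, chr7:6729171-6730166 and chr7:6730167-6731282, and longer for the first, chr7:6725717-6729095. They are called by the same names below.

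On the alleles at E7.5, the gDMR was methylated on the maternal copy and low on the paternal copy in every library of both tissues, whichever strain the mother was. In ExE the maternal allele of the ZFP57 window was at 83.4% and 69.2% in the B6/CAST libraries and at 91.1% and 91.3% in the CAST/B6 libraries. Its paternal allele was at 1.80% and 0.284% in B6/CAST and at 0.641% and 0% in CAST/B6. The alleles did not overlap, and B6/CAST replicate 2 had the lowest maternal value. In the YY1 window the ExE maternal allele was at 80.5% and 60.6% in B6/CAST and at 82.0% and 88.3% in CAST/B6, and the paternal allele at 2.17% and 2.28% in B6/CAST and at 14.0% and 6.52% in CAST/B6. The CAST/B6 libraries held the highest values of both alleles there. In the start window the ExE maternal allele was at 85.9% and 73.5% in B6/CAST and at 80.2% and 77.8% in CAST/B6. Its paternal allele was at 0.794% and 0% in B6/CAST and at 5.0% and 0% in CAST/B6, so that 2 of the 4 libraries had no methylated call on it.

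The epiblast showed the same order. In the ZFP57 window its maternal allele was at 97.4% and 80.7% in B6/CAST and at 92.0% and 96.9% in CAST/B6, and its paternal allele at 5.26% and 0% in B6/CAST and at 0% and 4.76% in CAST/B6. In the YY1 window the maternal allele was at 82.9% and 66.1% in B6/CAST and at 83.8% and 89.0% in CAST/B6, and the paternal allele at 3.21% and 1.04% in B6/CAST and at 5.71% and 11.5% in CAST/B6. B6/CAST replicate 2 was again lowest on the maternal allele of both windows. In the start window, which holds the transcription starts, the maternal allele had no value in CAST/B6 replicate 1, and the other libraries were at 95%, 93.3% and 100%, above the ExE range of 73.5% to 85.9% in this window. Its paternal allele had a value in only 2 of the 4 libraries, B6/CAST replicate 2 and CAST/B6 replicate 1, and was at 0% in both. The start window was therefore left out of the epiblast allele means and their tests.

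**Figure D1:**
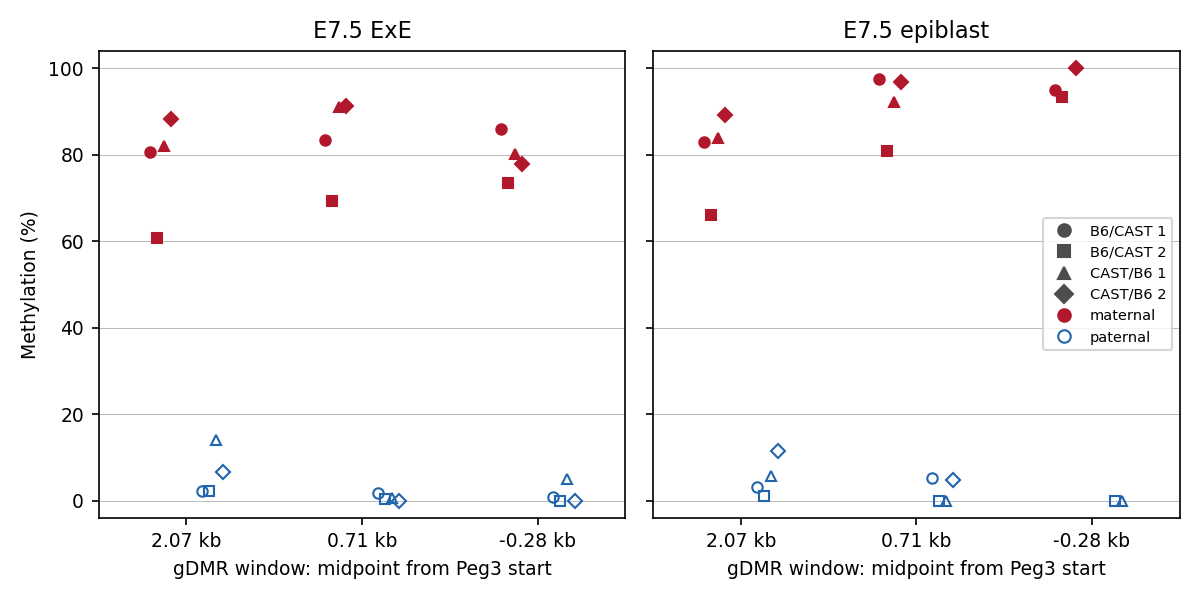
Methylation (%) of the maternal (filled) and paternal (open) allele in the 3 gDMR windows at E7.5, by library, in ExE (left) and epiblast (right). Windows are named by the distance of their midpoint from the Peg3 start (YY1 window 2074 bp, ZFP57 window 705.5 bp, start window -277 bp), and every maternal value, 60.6% or more, lies above every paternal value, 14.0% or less.

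The mean difference between the alleles over the gDMR windows was 77.5 points (SD 7.46, n = 4, 3 windows) in ExE and 82.2 points (SD 6.21, n = 4, 2 windows) in epiblast, with the maternal allele higher in 4 of 4 libraries of each. The exact two-sided sign-flip test gave p = 0.125 for each, the smallest value that 4 libraries allow. The epiblast values were 84.9 to 85.9 in 3 libraries and 72.9 in B6/CAST replicate 2, which stands apart. Over the YY1 and ZFP57 windows, the difference was 77.3 points (SD 9.71) in ExE, so that epiblast was higher by 4.82 points with overlapping libraries (exact permutation test, 4 against 4, p = 0.543). The maternal allele differed by 5.30 points (p = 0.486, exact permutation) and the paternal allele by 0.472 points (p = 0.771, exact permutation) between the tissues. The libraries of both tissues overlapped in each of these measures. Without B6/CAST replicate 2 of ExE the difference in the maternal allele was 0.00116 points and that in the parental difference 0.255 points, and without B6/CAST replicate 2 of epiblast they were 9.53 and 7.92 points. The labels do not say whether same-numbered libraries came from 1 embryo. Taken as pairs, the maternal allele was higher in epiblast in 4 of 4 (exact sign-flip p = 0.125).

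In the fit with limma across all autosomal windows with a value in every library, with the cross as a term, the maternal allele was higher at Benjamini-Hochberg adjusted p under 0.05 in 16 of 318358 ExE windows (0.00503%) and in 15 of 238529 epiblast windows (0.00629%). In the domain, 2 of the 22 windows tested in ExE passed, the ZFP57 window (83.07 points, SE 4.22, limma adjusted p = 0.0286) and the start window (77.91 points, SE 4.17, limma adjusted p = 0.0298). The YY1 window, at 71.61 points (SE 5.16), missed the threshold (limma adjusted p = 0.0890), and passed it on the logit scale (limma adjusted p = 0.00121) and with no term for the cross (limma adjusted p = 0.0358). In epiblast 2 of the 18 windows tested passed, the YY1 window (75.08 points, SE 4.49, limma adjusted p = 0.0317) and the ZFP57 window (89.25 points, SE 4.30, limma adjusted p = 0.0148). No window outside the gDMR passed in either tissue. These calls rest on all 4 libraries: with any 1 of B6/CAST replicate 1 or 2 or CAST/B6 replicate 1 or 2 left out, limma called 0 of the domain's windows in ExE and 0 in epiblast, and no window of the genome passed once windows that lack 1 library were added (21267 and 13708 at an unadjusted p under 0.05), where the gDMR windows had limma adjusted p of 0.0558 to 0.176. All 5 windows that were fitted kept differences above 70 points in that fit. With all 4 libraries kept, limma called 0 windows in the domain and 0 in the genome with trend and robust moderation or with the replicate block.

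The same windows were compared by strain, with the B6 and the CAST allele in place of the parents. Limma called 0 of the domain's 22 windows in ExE and 0 of 18 in epiblast, beside 0 windows of the genome (0.0%), and at an unadjusted p under 0.05 it gave 1 and 0 domain windows against 27808 (8.73%) and 15868 (6.65%) windows of the genome. With no window of the genome called, this fit sets the gDMR apart from no other window.

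Outside the gDMR the alleles were much closer. Over the 19 other windows the maternal allele was higher by 3.04 points in ExE (SD 2.88, n = 4, exact sign-flip p = 0.25), and over the 16 windows with values in every epiblast library by 2.72 points (SD 3.0, n = 4, exact sign-flip p = 0.25). In each tissue 3 of 4 libraries had the maternal allele higher. The difference between the tissues was 0.134 points (exact permutation test, 4 against 4, p = 0.943).

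The Zim1 gene body had the largest maternal excess outside the gDMR in ExE. The window chr7:6677388-6682614 inside Zim1 had the maternal allele at 83.2% and 83.4% in the B6/CAST libraries and at 87.2% and 90.7% in the CAST/B6 libraries of ExE, and the paternal allele at 72.2% and 68.8% in B6/CAST and at 60.4% and 73.5% in CAST/B6. The alleles did not overlap there, with a difference of 17.40 points (SE 4.08) that failed the correction (limma unadjusted p = 0.00513, adjusted p = 0.777). The maternal allele was higher in all 4 ExE libraries in 4 of the 5 Zim1 body windows, beside 6.32% of autosomal windows, with mean differences of 3.02 to 17.4 points over the 5. In epiblast this held for 2 of 5 Zim1 body windows, beside 5.75% of windows, with mean differences of -4.92 to 13.2 points. No test compared these 2 counts.

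In the body of Peg3 the ExE differences ran the other way or were near 0. The 5 windows had mean differences of -11.4 to 0.762 points, and the paternal allele was higher in all 4 libraries in 1 of them, chr7:6708423-6710519, beside 6.27% of windows. Both alleles were highly methylated there, with ExE paternal values of 82.9% to 92.8% and maternal values of 80.1% to 90.7%. In epiblast the 4 Peg3 body windows with every library included 1 in which the maternal allele was higher throughout, chr7:6718032-6727430 next to the gDMR, by 14.10 points (SE 4.75, limma adjusted p = 0.941). On the Usp29 side 1 allele was higher in all 4 libraries in none of the 5 windows in ExE and in none of the 3 windows with every library in epiblast. The window chr7:6657634-6662868, on the far side of Zim1, had the largest epiblast excess of the maternal allele among windows outside the gDMR with every library, 15.34 points (SE 4.27, limma adjusted p = 0.941), with 4 of 4 libraries in that direction. In ExE that window had a mean difference of 5.94 points, also in 4 of 4 libraries.

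The window at the Zim1 start, chr7:6696359-6699366, was low on both alleles, unlike the gDMR. In ExE its maternal allele was at 24.8% and 17.8% in B6/CAST and at 23.5% and 29.7% in CAST/B6, and its paternal allele at 20.6% and 21.2% in B6/CAST and at 24.4% and 76.0% in CAST/B6. The last value, of CAST/B6 replicate 2, stands far above the other 3. It gave the lowest mean difference of the ExE windows, -11.6 points, which became 0.0119 points without that library. In epiblast the maternal allele was at 14.6%, 23.1%, 14.3% and 24.2%, and the paternal allele at 21.2%, 20.7%, 28.6% and 47.2%, in the same order of libraries. The mean difference was -10.4 points (SD 10.8, n = 4), with 1 of 4 libraries maternal higher, and limma did not call it (-10.36 points, SE 4.36, adjusted p = 0.941). The sequence just upstream of the outermost Zim1 start of RefSeq and GENCODE, chr7:6696541-6696740 on the minus strand, is shown because it is the other low stretch of the domain. Its 10 CpGs are in capitals.
Zim1 upstream stretch: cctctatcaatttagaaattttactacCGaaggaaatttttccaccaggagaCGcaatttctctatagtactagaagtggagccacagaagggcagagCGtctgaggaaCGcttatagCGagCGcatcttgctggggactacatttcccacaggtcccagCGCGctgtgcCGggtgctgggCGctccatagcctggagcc

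**Figure D2:**
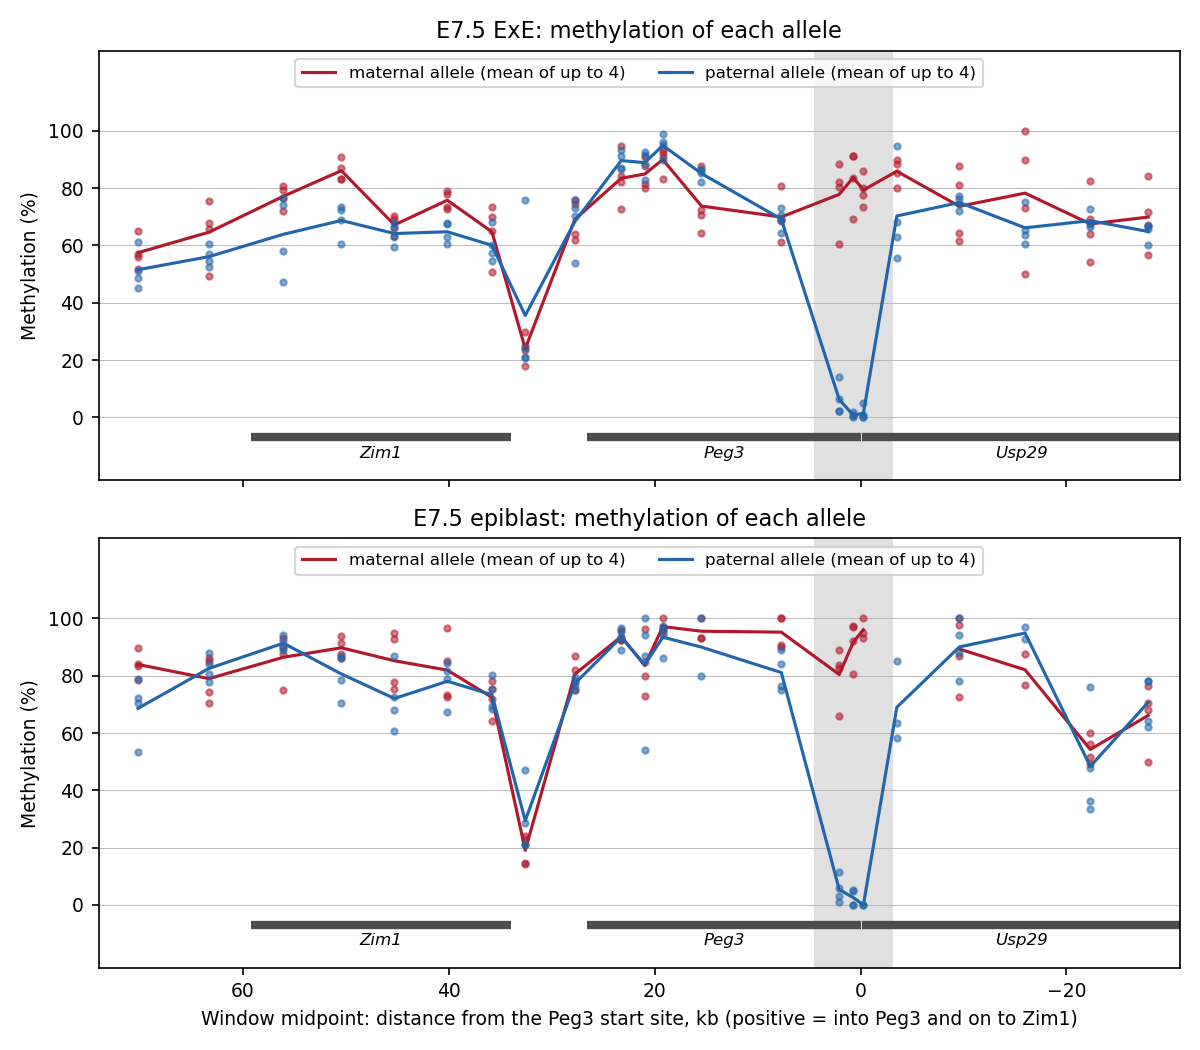
Methylation (%) of the maternal (red) and paternal (blue) allele along the domain at E7.5, in ExE (top) and epiblast (bottom), against the distance of each window's midpoint from the Peg3 start in kb. Points are libraries, lines join the means of up to 4 libraries, the grey band is the gDMR and the dark bars are the genes; the alleles part in the gDMR, by 77.5 points in ExE and 82.2 points in epiblast, and both dip at the Zim1 start.

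With both alleles combined, the domain was more methylated in E7.5 epiblast than in ExE everywhere but in the gDMR, at the Zim1 start and over parts of Peg3 and Usp29. Over the 19 windows outside the gDMR the epiblast libraries were at 79.3% and 74.4% in B6/CAST and at 81.2% and 81.1% in CAST/B6, and the ExE libraries at 68.5% and 66.6% in B6/CAST and at 69.4% and 73.2% in CAST/B6. The tissues did not overlap, and epiblast was higher by 9.58 points (exact permutation test, 4 against 4, p = 0.0286, the smallest possible). The autosomal mean was 73.9% (SD 1.65, n = 4) in epiblast and 57.6% (SD 1.66, n = 4) in ExE. Once each library's autosomal mean was subtracted, the difference of epiblast and ExE outside the gDMR was -6.74 points (exact permutation test, 4 against 4, p = 0.0286), so that the direction depends on the scale. On single alleles, over 16 windows, epiblast was higher by 8.26 points on the maternal allele and by 8.13 points on the paternal allele (exact permutation p = 0.0571 for each).

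Limma called 13 of the domain's 22 windows higher in epiblast, beside 82.9% of all autosomal windows, and 1 lower, beside 1.3%. With each library's autosomal mean subtracted, it called 0 higher and 8 lower in the domain, beside 72972 higher and 79745 lower of 383556 autosomal windows. The 2 windows on the far side of Zim1 (16.44 and 23.35 points) and all 5 of the Zim1 body (9.02 to 18.93 points) were higher, as was the one between Zim1 and Peg3 (11.16 points, limma adjusted p = 0.0168). In the Peg3 body 3 of 5 were higher, and the other two, chr7:6708423-6710519 and chr7:6710520-6711929, averaged 87.3% or more in both tissues. On the Usp29 side 2 of 5 were higher, by 18.20 and 14.40 points, and chr7:6749439-6756042 was lower (-9.45 points, SE 3.84, limma adjusted p = 0.0445). That call was lost on the logit scale, with trend and robust moderation, with the replicate block and in 5 of 8 fits that left out 1 library (B6/CAST epiblast replicate 2, CAST/B6 epiblast replicate 2, B6/CAST ExE replicate 1 or 2, or CAST/B6 ExE replicate 2). The window was at 61.7% and 50.5% in B6/CAST epiblast and at 61.7% and 51.7% in CAST/B6 epiblast, against 67.5%, 63.7%, 60.03% and 72.2% in ExE, with overlapping ranges. Every epiblast library lay above every ExE library in 2 of 2 windows on the far side of Zim1, 4 of 5 of the Zim1 body, 3 of 5 of the Peg3 body, 1 of 5 on the Usp29 side and 0 of 3 in the gDMR, beside 73.8% of autosomal windows.

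None of the 3 gDMR windows passed between the tissues with all 8 libraries on the percent scale. The YY1 window was at 42.9% to 49.4% in epiblast and at 42.4% to 47.2% in ExE, a difference of 1.28 points (limma adjusted p = 0.607). The ZFP57 window was at 44.5% to 61% and at 25.8% to 54.1% (7.65 points, limma adjusted p = 0.235). Without B6/CAST ExE replicate 1 the ZFP57 window was called higher in epiblast (12.92 points, limma adjusted p = 0.0340), and with each library's autosomal mean subtracted the YY1 window was called lower (-15.04 points, limma adjusted p = 0.000965). In the start window the epiblast libraries were at 56.9% and 67.8% in B6/CAST and at 17.4% and 35.8% in CAST/B6, and the ExE libraries at 24.4%, 38.6%, 42.2% and 35.2%, a difference of 9.34 points (limma adjusted p = 0.342). The CAST/B6 epiblast library at 17.4% is the one in which the maternal allele had no value in that window. Over the 3 windows epiblast was at 47.4% (SD 5.25, n = 4) and ExE at 41.3% (SD 4.05, n = 4), a difference of 6.09 points (exact permutation p = 0.114) with overlapping libraries. With every window that overlaps the gDMR weighted by its overlap, the difference of 6.82 points passed (exact permutation test, 4 against 4, p = 0.0286), and with each library's autosomal mean subtracted the difference over the 3 windows was -10.2 points (exact permutation test, 4 against 4, p = 0.0857).

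**Figure D3:**
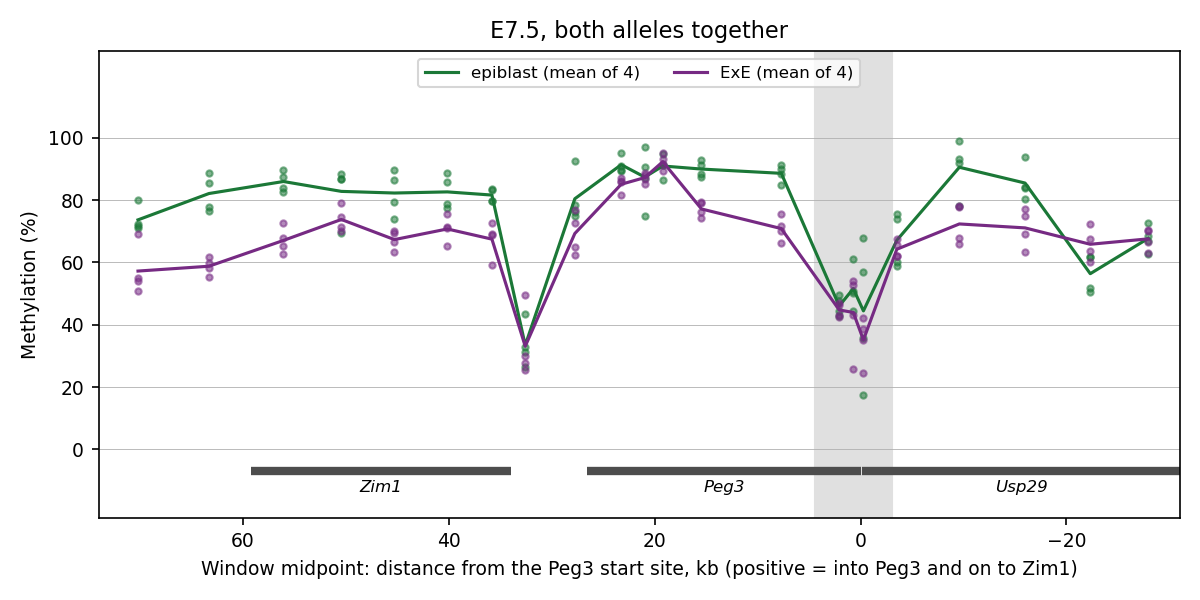
Methylation (%) of both alleles together along the domain in E7.5 epiblast (green) and ExE (purple), by distance from the Peg3 start in kb. Points are the 4 libraries of each tissue and lines their means; outside the gDMR (grey band) epiblast is higher on average by 9.58 points, while the 3 gDMR windows overlap between the tissues.

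At E6.5, where libraries are pools and values cover both alleles, the wild-type gDMR was above the middle of the scale in most libraries. Over its 3 windows the B6/CAST epiblast libraries were at 57.2%, 82.2% and 48.3% and the CAST/B6 epiblast libraries at 74.4%, 58.9% and 74.5%. The ExE libraries were at 62.9% and 60.6% in B6/CAST and at 45.8% and 75.6% in CAST/B6. The spread between libraries was wide, and the lowest ExE value came from CAST/B6 replicate 1, whose ZFP57 window was at 0% while the other 3 ExE libraries were at 71.2% to 80.9%. Epiblast was at 65.9% (SD 13.0, n = 6) and ExE at 61.2% (SD 12.2, n = 4), which differed by 4.69 points (exact permutation p = 0.638). Without CAST/B6 replicate 1 of ExE the difference was -0.468 points. Beside these, the single embryos of E7.5 were at 47.4% and 41.3% in different windows.

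Between the crosses at E6.5, the gDMR in epiblast was at 62.5% in B6/CAST and at 69.3% in CAST/B6 (-6.72 points, exact permutation test, 3 against 3, p = 0.6, where 0.1 is the smallest possible). In ExE, with 2 libraries each, B6/CAST was at 61.8% and CAST/B6 at 60.7%, and without the CAST/B6 library at 0% in the ZFP57 window the difference of B6/CAST and CAST/B6 was -13.8 points, and without the other CAST/B6 library it was 16.0 points. The autosomal means of the crosses also differed, at 69.0% in B6/CAST and 77.8% in CAST/B6 epiblast and at 50.5% and 63.2% in ExE. With each library's autosomal mean subtracted, the gDMR difference of B6/CAST and CAST/B6 was 2.11 points in epiblast (exact permutation test, 3 against 3, p = 1.0) and 13.7 points in ExE.

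Outside the gDMR the E6.5 wild-type domain was at 84.3% in epiblast (SD 5.74, n = 6) and at 72.0% in ExE (SD 7.57, n = 4) over 12 windows, higher in epiblast by 12.3 points (exact permutation p = 0.0381), with overlapping libraries. The call was lost in 6 of 10 cases that left out 1 library. The exact permutation p was 0.0635 without CAST/B6 epiblast replicate 1, 2 or 3 or the B6/CAST epiblast library whose number matches no label. It was 0.0952 without B6/CAST ExE replicate 1 or 2 (exact permutation). Relative to each library's autosomal mean, the difference was -4.23 points (exact permutation p = 0.00952, 6 against 4). Limma called 5 of the domain's 15 windows higher in epiblast, beside 59.6% of windows, and 0 lower, beside 0.663%, with 0 of 3 gDMR windows called. They were the window on the far side of Zim1 (22.33 points), 2 of the Zim1 body (26.28 and 21.63 points) and 2 on the Usp29 side (24.32 and 13.36 points). With each library's autosomal mean subtracted, limma called 0 domain windows, beside 15525 higher and 21893 lower of 250886 autosomal windows. None of the 3 Peg3 body windows tested passed. The other one, chr7:6708743-6710795, lacked values in 2 libraries and was not tested, and every epiblast library with a value lay above every ExE library there. All 4 windows averaged 85.1% or more in both tissues. The window at the Zim1 start was low at E6.5 as well, at 24.0% to 56.0% in epiblast and at 28.9% to 35.3% in the 3 ExE libraries with a value.

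In matDKO/CAST embryos, whose oocytes lacked Dnmt3a and Dnmt3b, the gDMR was low in methylation in both tissues at E6.5. In ExE the matDKO/CAST libraries were at 0%, 15.8% and 20.8% in the YY1 window and at 10.99%, 10.5% and 3.21% in the start window. The wild-type ExE libraries were at 62.5%, 42.3%, 64.3% and 69.0% in the YY1 window and at 51.9%, 58.6%, 73.0% and 86.6% in the start window, in the order B6/CAST and then CAST/B6. No matDKO/CAST value reached the wild-type range in these windows. In the ZFP57 window matDKO/CAST ExE was at 22.6% and 8.33%, with no value in replicate 3, against 74.4%, 80.9%, 0% and 71.2% in the wild type, so that 1 wild-type library, CAST/B6 replicate 1, lay below them.

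In epiblast the 2 matDKO/CAST libraries had values in different gDMR windows. Replicate 1 was at 2.78% in the ZFP57 window and at 0% in the start window. Replicate 3 was at 9.09% in the YY1 window. The 6 wild-type libraries ranged from 42.4% to 76.5% in the YY1 window, from 45.1% to 93.1% in the ZFP57 window and from 51.5% to 92.0% in the start window. Every matDKO/CAST value was thus below every wild-type value of its window, in 3 of 3 windows, beside 47.3% of autosomal windows in epiblast. That share is over windows with both matDKO/CAST libraries, while each gDMR window has 1, for which the condition is easier to meet. In ExE this held for 2 of 3, beside 42.8%.

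Over the windows that each library had, the epiblast gDMR was at 5.24% in matDKO/CAST (SD 5.45, n = 2) and at 65.9% in the wild type (SD 13.0, n = 6), a difference of -60.7 points (exact permutation p = 0.0714, the smallest that 2 against 6 allow). In ExE, over the YY1 and start windows, matDKO/CAST was at 10.2% (SD 4.12, n = 3) and the wild type at 63.5% (SD 12.1, n = 4), a difference of -53.3 points (exact permutation p = 0.0571, the smallest that 3 against 4 allow). Limma called, beside 49.0% of autosomal windows lower, both ExE gDMR windows that had a value in every library, the YY1 window (-47.33 points, SE 7.24, adjusted p = 0.0110) and the start window (-59.29 points, SE 5.61, adjusted p = 0.0110). With 1 missing library allowed, the ZFP57 window in ExE was not called (-41.13 points, SE 18.19, limma adjusted p = 0.0998). In epiblast no gDMR window had every library. With 1 missing library allowed, the 3 windows differed by -51.97, -60.21 and -73.68 points from the YY1 to the start window. Each of these values rests on 1 matDKO/CAST library, whose spread is unknown, so no test is given.

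The rest of the domain was also lower in matDKO/CAST, by less. Over 11 epiblast windows the matDKO/CAST libraries were at 59.7% and 61.2%, and the wild-type libraries at 76.9%, 78.2% and 83.8% in B6/CAST and at 90.5%, 90.4% and 85.2% in CAST/B6. The groups did not overlap, and the difference was -23.8 points (exact permutation p = 0.0714, 2 against 6). Over 12 ExE windows the matDKO/CAST libraries were at 45.1%, 50.7% and 46.4%, and the wild type at 66.3% and 64.9% in B6/CAST and at 80.1% and 77.9% in CAST/B6, a difference of -24.9 points (exact permutation p = 0.0571, 3 against 4). The autosomal means were 52.0% in matDKO/CAST and 73.4% in wild-type epiblast, and 38.6% and 56.9% in ExE. With these subtracted per library, the difference outside the gDMR was -2.39 points in epiblast (exact permutation p = 0.286, 2 against 6) and -6.63 points in ExE (exact permutation p = 0.0571, 3 against 4), and that at the gDMR was -39.3 and -35.0 points (exact permutation p = 0.0714 and 0.0571).

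Taken relative to the other windows of the same library, the gDMR differed between matDKO/CAST and the wild type by -36.5 points in epiblast (exact permutation p = 0.0714, 2 against 6) and by -28.4 points in ExE (exact permutation p = 0.0571, 3 against 4), with no overlap between the groups in either tissue. In epiblast each library's own windows were used, in and outside the gDMR, so the windows differ between libraries. Both p-values are the smallest the designs allow. With windows weighted by their overlap with the gDMR, so that the flanking windows counted, these differences were -17.7 (exact permutation p = 0.143) and -17.3 points (exact permutation p = 0.0571).

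**Figure D4:**
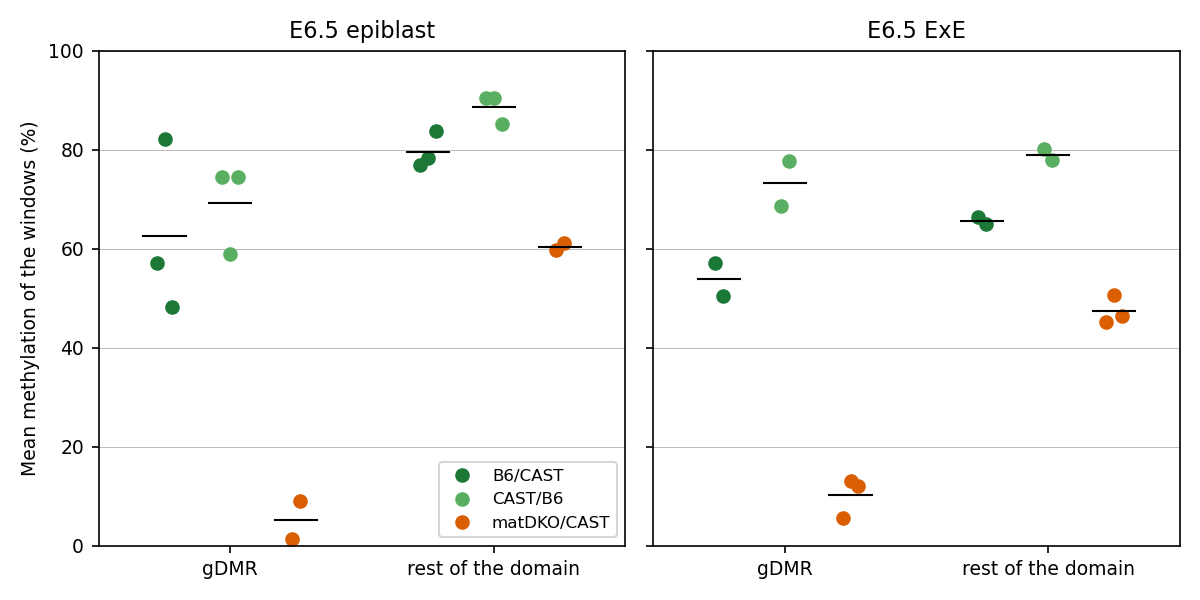
Mean methylation (%) of the gDMR windows and of the other windows of the domain in each E6.5 library, in epiblast (left, windows each library had) and ExE (right, YY1 and start windows), for matDKO/CAST and both wild-type crosses, with a black line at each group mean. The matDKO/CAST libraries lie between 1.39% and 13.1% at the gDMR and between 45.1% and 61.2% outside it, below all wild-type libraries of the same tissue and region.

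Among single windows, limma called 10 of 14 domain windows lower in matDKO/CAST ExE, beside the same 49.0%, and 6 of 11 lower in epiblast, beside 53.0%. None was higher, beside 0.00472% and 0.0421% of windows. With each library's autosomal mean subtracted, limma called 0 domain windows in either tissue and 0 in the genome (34916 in ExE and 44692 in epiblast at an unadjusted p under 0.05, of which 5 and 2 in the domain). In each tissue the largest difference outside the gDMR was in a Zim1 body window. In ExE all 4 of its windows were called, by -30.39 to -43.54 points, and its matDKO/CAST values were 17.9% to 44.4%. In epiblast both Zim1 body windows with every library were called, by -21.00 and -47.18 points (limma adjusted p = 0.0268 and 0.00580). In the Zim1 body window chr7:6677589-6684089, which has 1 matDKO/CAST epiblast library, that library was at 6.67%, beside 60.9% to 90% in the wild type.

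The Peg3 body was high in matDKO/CAST ExE as well. None of the 3 windows tested there passed, at -5.76 (SE 6.98, limma adjusted p = 0.482), -12.14 (SE 5.94, limma adjusted p = 0.110) and -10.82 points (SE 5.11, limma adjusted p = 0.101), and the matDKO/CAST libraries ranged from 68% to 90.2% in them. Every matDKO/CAST library with a value was below every wild-type one in 2 of the 4 Peg3 body windows, beside 42.8% of autosomal windows. These were chr7:6710796-6715621, by -12.14 points, and chr7:6708743-6710795, which lacked values in 2 libraries and was not tested, by -7.05 points. In epiblast 1 of 3 passed, chr7:6715622-6725716 next to the gDMR, where the matDKO/CAST libraries were at 67.7% and 50.0% and the wild type at 84.4% to 95.3% (-31.48 points, SE 5.74, limma adjusted p = 0.00497). The other two were at 84.1% to 95.7% in matDKO/CAST, by -10.36 and -4.52 points. No test compared the tissues here.

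Between Zim1 and Peg3 the window chr7:6698580-6706385 differed in both tissues, by -33.92 points in epiblast (limma adjusted p = 0.0109) and by -19.95 points in ExE (limma adjusted p = 0.0222). On the Usp29 side 2 of 4 windows were called in epiblast and 2 of 3 in ExE. The window chr7:6731296-6738923, which reaches into the gDMR by 2205 bp, differed by -29.58 points in epiblast (limma adjusted p = 0.0136) and by -26.23 points in ExE (limma adjusted p = 0.0206). The Zim1 start, already low in the wild type, was at 14.3% in the one matDKO/CAST epiblast library with a value and at 11.8%, 25.8% and 20% in ExE.

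**Figure D5:**
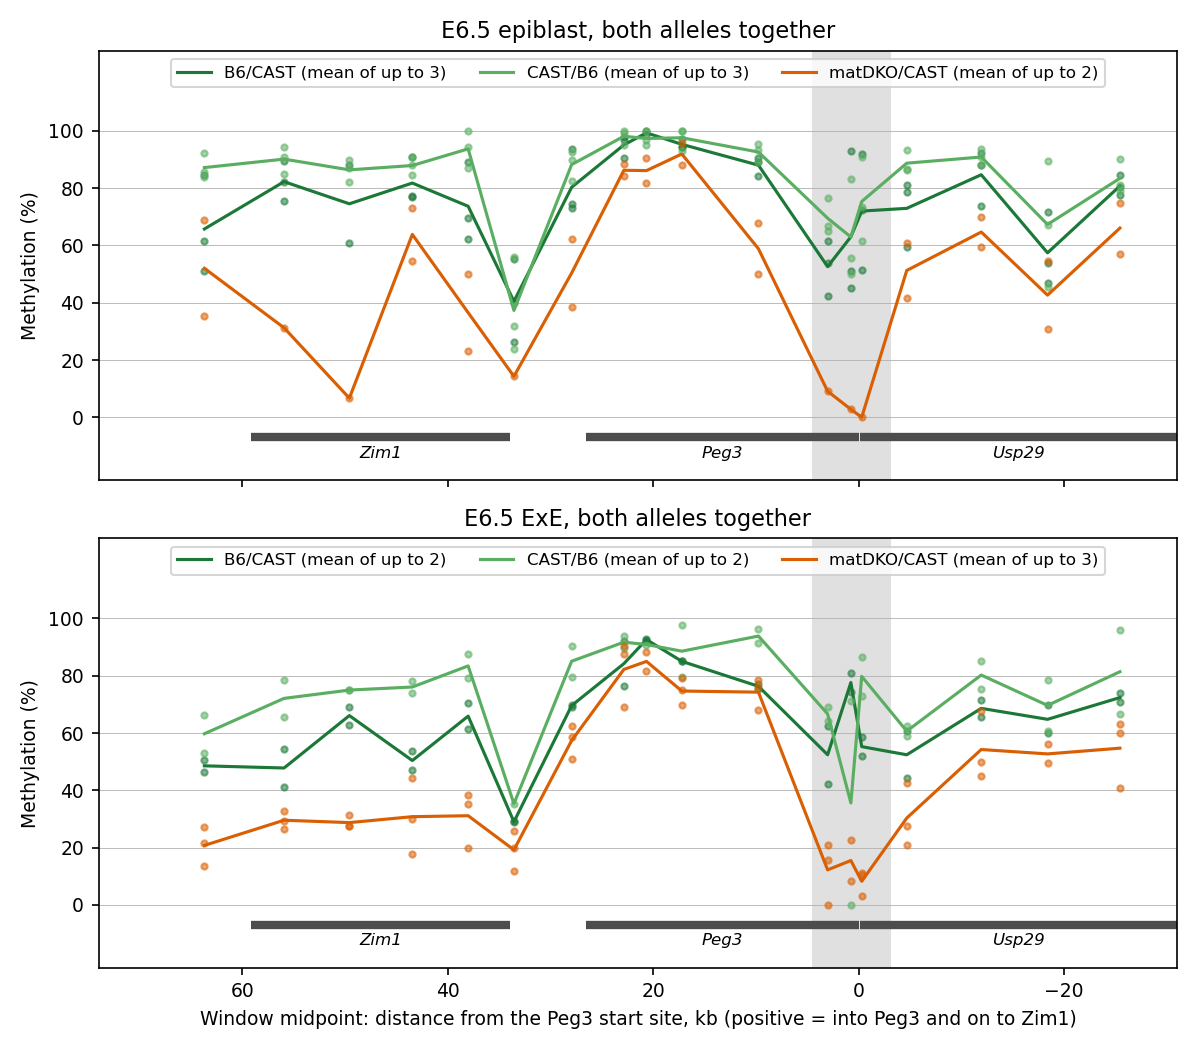
Methylation (%) of both alleles together along the domain at E6.5 in epiblast (top) and ExE (bottom), by distance from the Peg3 start in kb, for matDKO/CAST and both wild-type crosses. Points are libraries and lines join group means; matDKO/CAST is low in the gDMR (grey band), at 0% to 22.6%.

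The matDKO/CAST comparison depended on which embryos stood for the wild type. Against B6/CAST alone, which share the direction of the cross and the CAST father, limma called 0 of 11 domain windows in epiblast and 0 of 15 in ExE, as it called 0 windows of the genome (63377 and 74999 at an unadjusted p under 0.05). The YY1 and start windows then differed in ExE by -40.20 and -47.02 points (limma adjusted p = 0.138 for both). In epiblast, on 1 matDKO/CAST library each and with no test, the gDMR windows differed by -43.52, -60.25 and -72.01 points from the YY1 to the start window. In all 3 gDMR windows the matDKO/CAST values remained below every B6/CAST value in each tissue. The share of autosomal windows that meet this was not computed, and fewer wild-type libraries make it easier to meet. E6.5 values cover both alleles, so the alleles cannot be told apart there.

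Set beside 14 other loci with a maternal gDMR, over the windows that each library had, the difference between the alleles at the Peg3 gDMR in ExE was the third in order, with 2 loci higher (77.5 points against a median of 57.6). The loci were imprinted H3K4me3 peaks that the study lists with a maternal gDMR. The Peg3 paternal level in ExE, 2.79%, was below those of all 14 others, which ran from 3.51% to 54.6%. In epiblast it was 3.65%, and 2 of the 14 others were lower, the lowest at 1.39%. Its maternal level in ExE was in the middle of the order, with 9 of 14 higher. In matDKO/CAST its level was lower than that of 11 of the 14 others in ExE (11.6%) and of 12 in epiblast (5.24%). These places in the order are a description, with no test.

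CpG density and level were set side by side as a description. Over the 22 windows of E7.5 ExE, which share libraries and sequence, Pearson's r of density and mean level was -0.58 on the paternal and 0.30 on the maternal allele. Without the 3 gDMR windows it was 0.48 and 0.22 over 19 windows. In epiblast it was -0.67 on the paternal over 22 windows and 0.21 on the maternal allele over 21, and 0.10 (19 windows) and 0.03 (18 windows) without the gDMR.

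The tissue labels were checked at the starts of Elf5, a trophoblast transcription factor, and Pou5f1, a pluripotency factor. At E7.5 the Elf5 window was at 80.4% to 92.6% in epiblast and at 60.8% to 69.1% in ExE, and the Pou5f1 window at 11.4% to 24.96% in epiblast and at 37.2% to 42.1% in ExE, with no overlap. At E6.5, matDKO/CAST included, the tissues overlapped at both genes, at Pou5f1 only through matDKO/CAST, since the wild type was at 1.79% to 10.0% in epiblast and at 15.9% to 77.8% in ExE (Elf5 71.7% to 100% against 36.8% to 85.2%, Pou5f1 0% to 22.8% against 8.70% to 77.8%). Between 72.2% and 99.9% of autosomal windows had a value in an E6.5 library, 99.9% to 100% in an E7.5 library and 75.7% to 90.5% on an E7.5 allele, with matDKO/CAST epiblast replicate 3 lowest at E6.5 and the maternal allele of CAST/B6 epiblast replicate 1 lowest at E7.5.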

How the data were processed

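PBAT libraries were made by the authors from epiblast and ExE and aligned to GRCm38. The submitters' processing notes name Trim Galore 0.4.4 and Bismark 0.20.0 for E6.5 and Bismark with no version for E7.5, and the study's methods give another version of Bismark, so that which made the tables is not known. The deposited values are percent methylation per window of nominally 100 CpGs, for E6.5 and E7.5 with both alleles together and for E7.5 also per allele. No coverage was given, so depth is unknown and no counting interval could be made.

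Windows were assigned by their midpoint. A gDMR or outside mean used the windows with a value in every library compared, except for the matDKO/CAST epiblast gDMR, where no window had all libraries and each library's own windows were used. The epiblast comparison of the gDMR relative to the other windows also used each library's own windows, in and outside the gDMR. Means were compared by exact two-sided permutation or sign-flip tests (scipy 1.17.1). Windows were tested with limma 3.58.1 (R 4.3.3) on all autosomal windows with a value in every library, with Benjamini-Hochberg adjustment at 0.05 and the cross as a term. Wild type pools B6/CAST and CAST/B6. The fit was tested on simulated data, where it recovered nearly all larger changes. It missed many smaller ones, above all in matDKO/CAST, and made some false calls. Genes are from GENCODE M21 and sequences from the GRCm38 reference. The printed stretches at the gene starts begin at the outermost starts of RefSeq and GENCODE together. 

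An E6.5 epiblast column names B6/CAST with a replicate number that no labelled sample of that group has. It was used as a B6/CAST library without a number. Libraries of 1 group had identical values in at most 0.743% of windows in which the first of the pair lay between 0 and 100. All gDMR windows and the domain windows described by place were reported, with the highest and lowest difference between alleles outside the gDMR and the limma calls named. Peg3 body windows with 1 allele higher throughout, and a Zim1 window with 1 matDKO/CAST epiblast value, were named after their values were seen. The members and gene lists were chosen with earlier results of these data known. Alternatives were a weighting by overlap, medians, subtraction of each library's mean, other rules on missing values, other limma settings, a replicate block and leaving out each library. Allele means outside the gDMR between tissues were added after seeing the data.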

Additional observations from a re-analysis of the deposited data

Results flagged for a closer look

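Of 170 groups of 4 to 6 libraries, 8 held a library apart from the others by Dixon's gap test, and chance alone gives about 8. CAST/B6 E7.5 ExE replicate 2 had 76.0% on the paternal allele at the Zim1 start, where the other libraries had 20.6% to 24.4%. CAST/B6 E6.5 ExE replicate 1 had 0% in the ZFP57 window of the gDMR, against 71.2% to 80.9%. CAST/B6 E7.5 ExE replicate 1 had 5.0% on the paternal allele of the start window, against 0% to 0.794%. B6/CAST E7.5 epiblast replicate 2 had a difference between alleles of 72.9 points at the gDMR, against 84.9 to 85.9 points in the others. The same library had 79.9% in chr7:6657634-6662868, against 71.0% to 72.3%, and 69.5% in chr7:6677388-6682614 inside Zim1, against 86.7% to 88.4%. B6/CAST E6.5 epiblast replicate 1 had 60.9% in chr7:6677589-6684089 inside Zim1, against 82.0% to 90.0%, and 73.7% in chr7:6738935-6745791 on the Usp29 side, against 88.1% to 93.5%. The causes were not tested.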

How the results depend on the processing

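Of 361 values over 30 results, 301 were labelled the same. For means with a test, the label stands for the same direction and side of the threshold. Where the smallest possible p lies above the threshold, the side could not change, so the label says little there. For other results the label is looser. With 1 library left out, limma counts of 11 to 13 domain windows between tissues at E7.5, in place of 14, had it. The untested cross difference at the E6.5 ExE gDMR had it in 4 of 4 cases, at -13.8 to 16.0 points. With each library's autosomal mean subtracted, the tissue differences reversed: -10.2 points at the gDMR and -6.74 outside at E7.5, -11.9 and -4.23 at E6.5, -11.3 (maternal) and -16.2 (paternal) at the E7.5 gDMR alleles and -8.38 and -8.50 outside it, while the cross difference at the E6.5 epiblast gDMR became 2.11 points. In that fit limma called 8 domain windows between tissues at E7.5, all lower in epiblast, beside 79745 of 383556 autosomal windows lower. It called 0 at E6.5, beside 37418 of 250886, and 0 in matDKO/CAST in either tissue, as in the genome. The tissue difference of the parental difference outside the gDMR became -0.467 points with missing windows left out per library. Medians gave 11.6 points on the paternal allele outside the gDMR (exact p = 0.0286), and overlap weighting 6.82 points at the E7.5 gDMR between tissues (exact p = 0.0286). The same weighting, which brings in the flanking windows, gave a difference between the alleles of 43.5 points in ExE and 57.1 points in epiblast. The epiblast value leaves out the start window and the flank on the Usp29 side, which lack values. These 2 values are thus over unlike sets of windows and do not compare the tissues.

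Limma called 0 domain windows between the alleles, in ExE and in epiblast, with trend and robust moderation, with 1 library missing allowed, with the replicate block and without any 1 library. Between tissues it called 1 domain window at E7.5 with differences of at least 20 points required, beside 139679 of 383556 autosomal windows. In matDKO/CAST it called 0 domain windows in epiblast and 0 in ExE against B6/CAST alone, as in the genome.

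Deviations of same-numbered libraries correlated at -0.0996 to 0.0506, and at 0.0486 to 0.0506 between the tissues of a cross at E7.5. The labels do not say whether these came from 1 embryo. Taken as pairs, the maternal allele at the E7.5 gDMR was higher in epiblast in 4 of 4, by 5.30 points (exact sign-flip p = 0.125, the smallest possible). Under the replicate block, limma called 3 domain windows between tissues at E6.5, beside 77978 of 251418 autosomal windows. It called 3 in matDKO/CAST epiblast, beside 43393 of 192789, and 7 in place of 10 in matDKO/CAST ExE, beside 71237 of 254322. Between tissues at E7.5 it called 13 in place of 14, losing the one lower in epiblast, beside 320093 of 383556. The paired tissue difference outside the gDMR was 9.58 points at E7.5 (exact sign-flip p = 0.125). At E6.5 it was 11.5 points (exact sign-flip p = 0.25). The number of pairs allows no smaller p.

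Leaving out 1 library gave 8.63 to 11.1 points for the tissue difference outside the gDMR at E7.5 (exact p = 0.0571 each, the smallest possible) and 9.86 to 14.4 points at E6.5 (exact p of 0.0159 to 0.0952). It gave 0.00116 to 9.53 points for the maternal allele at the E7.5 gDMR between tissues, 0.255 to 7.92 points for the tissue difference of the parental difference there, and -13.8 to 16.0 points for the cross difference in E6.5 ExE. It gave -0.468 to 9.48 points at the E6.5 gDMR between tissues, -0.921 to 1.76 points for the paternal allele at the E7.5 gDMR, -1.06 to 1.30 points for the tissue difference of the parental difference outside the gDMR, and -16.5 to 0.403 points for the cross difference in epiblast. Depth is unknown, so a value of 0% cannot be told apart from few reads.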
